A study of Danio rerio with 4 samples.

Results

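The genes described here are 8 zebrafish (Danio rerio) genes for the contractile machinery that is not part of the striated sarcomere: the myosin heavy chain genes myh9a, myh9b, myh10 and myh11a, the regulatory light chain genes myl9a and myl9b, the smooth muscle actin gene acta2 and the transgelin gene tagln. They were chosen by name from the 16662 genes of the deposited table, with results of the comparison of tie1 mutants and siblings already known. Their values are therefore a description, and no p-value is used in their support. All 8 had a row in the table. Of these, 7 averaged 10 or more over the libraries and entered the fit over 12118 genes, while tagln did not.

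Pools of hearts were cut out manually at 48 hours post fertilisation (hpf), and all fish carried the kdrl:eGFP transgene, which marks endothelium. The groups were 2 libraries labelled tie1 KO, called tie1 mutants here, and 2 libraries labelled tie1 WT, called siblings because the design text speaks of wild-type and heterozygous siblings. The mutant allele and the number of hearts in a pool are not stated in the sources used here. The labels give only a replicate number, and no source used here says that replicates are separate clutches. Spreads and p-values therefore measure the differences between these pools, which may be technical. The tie1 gene encodes a receptor tyrosine kinase of endothelium and of endocardium, the inner lining of the heart. The libraries held an estimated 2390000 and 1770000 reads in genes in mutant hearts, against 3240000 and 2470000 in sibling hearts. Both mutants were thus shallower than either sibling, mutant 1 only narrowly so beside sibling 2. The share of mitochondrial ribosomal RNA was 37.6% to 43.4% of the normalised total in mutant hearts and 30.4% to 32.9% in sibling hearts. The tissue label was met by the pan-cardiac light chain gene myl7, with normalised values of 3842 and 1966 in mutant hearts, against 3595 and 2469 in sibling hearts. The epidermal keratin gene krt4 was higher still in each library, at 9893 and 11758 in mutant hearts, against 9563 and 13531 in sibling hearts. The part of skin RNA in these pools was not tested. The mutated gene itself stood at 123 and 88 in mutant hearts, against 558 and 300 in sibling hearts, a log2 fold change of -1.97 ± 0.31 (SE).

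Non-muscle myosin II is built from a pair of heavy chains, each carrying an essential and a regulatory light chain, and forms short bipolar filaments that pull on actin in the cell cortex and at junctions. Phosphorylation of the regulatory light chain, by myosin light chain kinase among others, switches it on, and a phosphatase switches it off. Smooth muscle uses a closely related heavy chain together with its own actin and with actin-binding proteins such as transgelin. In the mouse, loss of the heavy chain gene Myh10 disturbs heart development, and smooth muscle actin and transgelin are made for a time in embryonic heart muscle as well as in smooth muscle.

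The member with the widest difference was myh10, which encodes the heavy chain of non-muscle myosin IIB. Its normalised values were 2233 and 2573 in mutant hearts, against 4759 and 3744 in sibling hearts. Both mutant libraries lay below both siblings, and the lower sibling was still well above the higher mutant. The means were 2403 ± 240.4 in the mutants and 4252 ± 717.7 in the siblings (SD, n = 2 each). That gave a log2 fold change of -0.82 ± 0.25 (SE), a fold of 0.568. Without each library in turn it ranged from -0.99 to -0.64.

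The paralogs for the heavy chain of non-muscle myosin IIA had smaller log2 fold changes, and the difference between genes was not tested. For myh9a the values were 1471 and 2054 in mutant hearts, against 1172 and 1663 in sibling hearts. The groups overlapped, each with a spread of about the same width, and the log2 fold change was 0.32 ± 0.27. Each library moved it widely, to 0.06 without sibling 1, 0.57 without sibling 2, 0.56 without mutant 1 and 0.08 without mutant 2. For myh9b the values were 1852 and 2266 in mutant hearts, against 2340 and 2322 in sibling hearts. Both mutants lay below the siblings, mutant 2 only narrowly, with a log2 fold change of -0.19 ± 0.23, which was -0.04 without mutant 1 and -0.33 without mutant 2. Under quantile normalization the value of myh9b was 0.01, so its direction depends on the scaling, whereas those of myh10 and myh9a were the same under each scaling tried. The smooth muscle heavy chain gene myh11a had 102 and 133 in mutant hearts, against 173 and 125 in sibling hearts. Mutant 2 lay above sibling 2, and the log2 fold change of -0.33 ± 0.26 was -0.14 without mutant 1, -0.52 without mutant 2, -0.10 without sibling 1 and -0.57 without sibling 2.

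**Figure D1:**
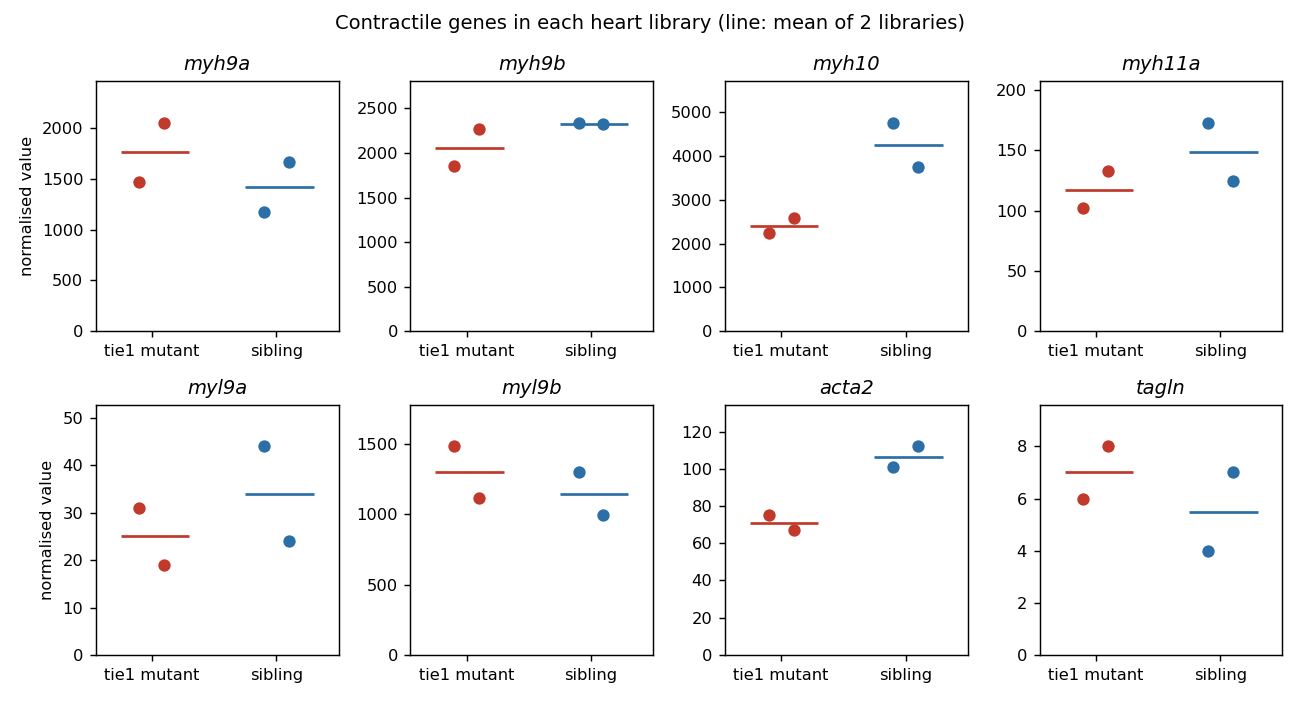
Normalised value of each of the 8 genes (vertical axes, each from 0) in the tie1 mutant libraries (red) and the sibling libraries (blue), with a line at the mean of the 2 libraries. The groups stand apart for myh10, at 2233 and 2573 in mutants against 4759 and 3744 in siblings, and for acta2, at 75 and 67 in mutants against 101 and 112 in siblings, while the myh9b groups nearly touch and the other 5 genes overlap.

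The regulatory light chain genes overlapped between the groups. The one with the higher values, myl9b, had 1482 and 1118 in mutant hearts, against 1297 and 994 in sibling hearts, a log2 fold change of 0.18 ± 0.25 that was -0.02 without mutant 1, 0.38 without mutant 2, 0.37 without sibling 1 and -0.01 without sibling 2. The other, myl9a, had 31 and 19 in mutant hearts, against 44 and 24 in sibling hearts, a log2 fold change of -0.41 ± 0.40. That value moved with each library, to -0.75 without mutant 1, -0.07 without mutant 2, 0.02 without sibling 1 and -0.83 without sibling 2. At such values few reads stand behind each library.

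Of the thin filament genes, acta2, which encodes smooth muscle alpha-actin, had 75 and 67 in mutant hearts, against 101 and 112 in sibling hearts. Each group was tight and the groups stood apart, with means of 71.0 ± 5.66 in mutant hearts and 106.5 ± 7.78 in sibling hearts (SD, n = 2 each). The log2 fold change was -0.58 ± 0.23, a fold of 0.670, and it ranged from -0.66 to -0.50 without each library. The transgelin gene tagln was near the floor of the table in every library, at 6 and 8 in mutant hearts, against 4 and 7 in sibling hearts. No fold is given for it, since a difference at this level was not detectable.

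The counts over the members stand here beside those over all genes. Among the 7 fitted members, 5 had lower and 2 had higher mutant values, where 50.3% of all 12118 genes were lower and 49.7% higher. Groups that did not overlap were found for 3 members in the lower direction, namely myh9b, myh10 and acta2, and for 0 in the higher direction. Over all genes the same was true of 18.3% in the lower and 15.7% in the higher direction. With limma and Benjamini-Hochberg adjustment over all genes, 0 of 12118 genes (0%) passed an adjusted p of 0.05, members included. Before adjustment, 316 genes (2.61%) lay higher and 526 (4.34%) lower at p under 0.05, the lower ones including 2 members, myh10 and acta2. That split was 506 higher and 357 lower after rescaling without mitochondrially encoded genes, which moved the median of all genes by 0.09. Nothing is read from the members' counts, as the members were picked with this comparison in view.

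**Figure D2:**
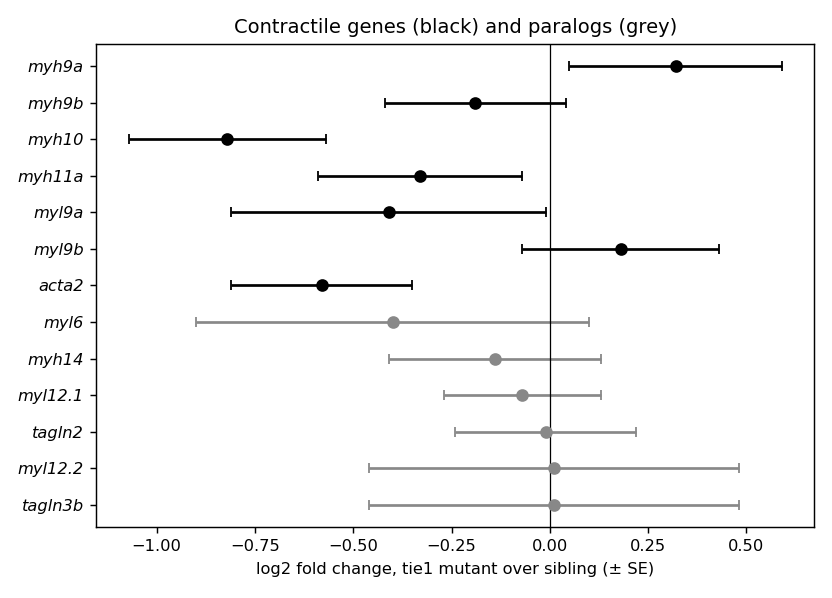
Log2 fold change of tie1 mutants over siblings, on the log2(value + 1) scale, with bars of 1 SE, for the 7 fitted members (black) and 6 paralogs (grey). The bars of myh10, at -0.82, and acta2, at -0.58, end well below 0, and the paralogs lie between -0.40 and 0.01.

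Within a library, the mix of non-muscle heavy chain genes can be read without any scaling between libraries. The ratio of myh10 to myh9b was 1.21 and 1.14 in mutant hearts, against 2.03 and 1.61 in sibling hearts, and that of myh10 to myh9a was 1.52 and 1.25 in mutant hearts, against 4.06 and 2.25 in sibling hearts. Both ratios were lower in both mutants than in either sibling. Longer genes gather more reads, so only the change of such a ratio between libraries can be read, not its level. In the summed value of myh9a, myh9b, myh10 and myh14, myh10 made up 37.4% and 36.0% in mutant hearts, against 54.9% and 46.5% in sibling hearts. The share of myh9a was 24.7% and 28.7% in mutant hearts, against 13.5% and 20.7% in sibling hearts. That of myh9b was 31.0% and 31.7% in mutant hearts, against 27.0% and 28.8% in sibling hearts. Shares of a sum depend on one another, so a smaller myh10 share leaves more to the other genes together. The values of myh9b themselves were lower in both mutants than in the siblings, and those of myh9a overlapped. The sum itself was 5967 and 7146 in mutant hearts, against 8662 and 8052 in sibling hearts. The ratios to myh10 and the shares were chosen after the values were seen. The ratio of myh9a to myh9b was 0.794 and 0.906 in mutant hearts, against 0.501 and 0.716 in sibling hearts.

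**Figure D3:**
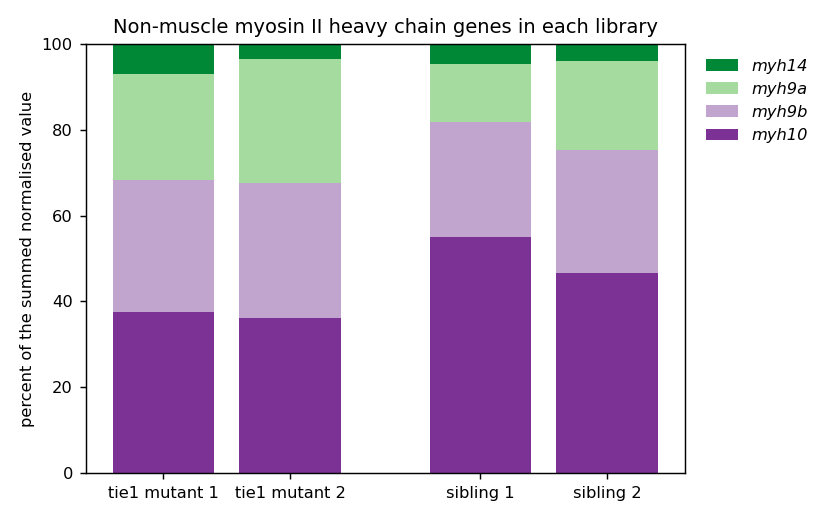
Share of each non-muscle myosin II heavy chain gene in their summed normalised value (vertical axis, percent) in each of the 4 libraries, mutants on the left. The myh10 segment is 37.4% and 36.0% in the tie1 mutants and 54.9% and 46.5% in the siblings, and the myh9a segment is wider in the mutants. Shares of a sum depend on one another.

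A bulk library cannot tell fewer cells of a type from less RNA per cell, and a ratio to a single marker gene cannot either. As a description only, the members were also set against a gene of heart muscle, myl7, and one of endothelium, cdh5, which encodes VE-cadherin. The ratio of myh10 to myl7 was 0.581 and 1.31 in mutant hearts, against 1.32 and 1.52 in sibling hearts, with mutant 2 almost level with sibling 1. The ratio of myh10 to cdh5 overlapped, at 1.70 and 3.26 in mutant hearts, against 2.53 and 3.35 in sibling hearts. For acta2, the ratio to myl7 was 0.0195 and 0.0341 in mutant hearts, against 0.0281 and 0.0454 in sibling hearts, and that to cdh5 was 0.0571 and 0.0848 in mutant hearts, against 0.0536 and 0.100 in sibling hearts. Both acta2 ratios overlapped between the groups. The light chain gene myl9b was higher relative to cdh5 in both mutants, at 1.13 and 1.42, than in the siblings, at 0.689 and 0.890. Its ratio to myl7 overlapped, at 0.386 and 0.569 in mutant hearts, against 0.361 and 0.403 in sibling hearts. For myl9a, at low values, the groups stood narrowly apart in both ratios. Its ratio to cdh5 was 0.0236 and 0.0241 in mutant hearts, against 0.0234 and 0.0215 in sibling hearts. Its ratio to myl7 was 0.00807 and 0.00966 in mutant hearts, against 0.0122 and 0.00972 in sibling hearts. The ratios of myh9a, myh9b, myh11a and tagln to both genes overlapped. Values of cdh5 itself were 1313 and 790 in mutant hearts, against 1883 and 1117 in sibling hearts, so the replicates of a group differed in it as widely as the groups did.

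Several marker lists of other cells had medians below 0, as myh10 and acta2 did, with 0 genes past the threshold in each. All 15 endothelial and endocardial markers were fitted and 13 were lower. Their median log2 fold change was -0.51 over the 4 libraries, -0.77 without mutant 1, -0.24 without mutant 2, -0.13 without sibling 1 and -0.81 without sibling 2. Their summed values were 3805 and 2453 in mutant hearts, against 5736 and 3687 in sibling hearts. All 9 measured epicardial markers were fitted and 7 were lower. Their median log2 fold change was -0.56, and -0.16 without mutant 1. Their sums were 1385 and 1215 in mutant hearts, against 2081 and 1622 in sibling hearts. Most of each sum came from podxl alone, with 1062 and 767 in mutant hearts, against 1570 and 1121 in sibling hearts. Of 15 heart muscle rows 13 were lower, at a median log2 fold change of -0.16 that was -0.58 without mutant 1, 0.18 without mutant 2, 0.00 without sibling 1 and -0.45 without sibling 2. Its gene with the highest values, the titin gene ttn.2, overlapped at 21517 and 16806 in mutant hearts, against 38955 and 19777 in sibling hearts. No marker of these 3 lists was at 0 in any library. The median of all genes was 0.00. In the endothelial list the gene with the highest values, kdrl, had a log2 fold change of -0.84 ± 0.35, and those with the smallest p were flt1, at -1.29 ± 0.27, and tal1, at -1.16 ± 0.30. Among epicardial markers the log2 fold changes were -0.56 ± 0.26 for podxl, -0.54 ± 0.22 for bnc2 and -1.03 ± 0.44 for tbx18. Named after their values were seen, aldh1a2 and gpx8 were on the higher side, at 0.46 ± 0.25 and 0.09 ± 0.58. The marker tcf21, named in the same way, was at -0.11 ± 0.45. Erythrocyte genes lay lowest of these lists, with 14 of 15 lower and a median log2 fold change of -1.40. That median stayed between -1.40 and -1.23 under each alternative. Other medians moved with single libraries. For 13 neural crest and arch genes the median log2 fold change was 0.05, with a range of -0.24 (without sibling 1) to 0.44 (without mutant 1). For 6 leukocyte genes it was 0.42, with a range of 0.23 (without mutant 2) to 0.99 (without mutant 1). For 11 epidermal genes it was 0.19, with a range of -0.16 (without sibling 1) to 0.47 (without sibling 2). For 5 neuronal genes it was 0.86, with a range of 0.02 (without sibling 2) to 1.4 (without sibling 1). The part of these cell types in the values of myh10 and acta2 was not tested.

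Actin genes need particular care, because the alpha-actin genes encode nearly identical proteins and a read may fit several of them. The skeletal muscle actin genes acta1b and acta1a were lower too. For acta1b the values were 962 and 748 in mutant hearts, against 1359 and 1316 in sibling hearts, a log2 fold change of -0.66 ± 0.22, and for acta1a they were 149 and 220 in mutant hearts, against 343 and 325 in sibling hearts, a log2 fold change of -0.88 ± 0.24. The table held 2 rows named actc1a, a cardiac actin gene, the higher with 864 and 767 in mutant hearts, against 1309 and 1140 in sibling hearts, and the lower with 2 and 8 in mutant hearts, against 54 and 44 in sibling hearts. In each of these 4 rows both mutants lay below both siblings. The ratio of acta2 to acta1b overlapped, at 0.0780 and 0.0896 in mutant hearts, against 0.0743 and 0.0851 in sibling hearts. This ratio, acta1a and the higher actc1a row were picked once the values were known. Fast skeletal muscle markers, to which acta1a and acta1b belong, were lower in 17 of 18 fitted rows. Their median log2 fold change was -1.32, which was -0.57 without mutant 1 and -1.98 without mutant 2. Their sums were 1824 and 2187 in mutant hearts, against 3620 and 3564 in sibling hearts, and no marker was at 0. In every library acta1b was the largest single part of the sum. Between the mutants the sum did not follow it, being higher in mutant 2, where acta1b was lower. The genes with the smallest p were the fast myosin gene myhz1.2, with 8 and 8 in mutant hearts, against 59 and 58 in sibling hearts, and the creatine kinase gene ckmb, with 29 and 29 in mutant hearts, against 110 and 114 in sibling hearts. In other markers the mutants differed widely. Named after their values were seen, myhz2 had 10 and 119 in mutant hearts, against 135 and 120 in sibling hearts, and mylpfa had 12 and 117 in mutant hearts, against 103 and 141 in sibling hearts. Whether reads of other alpha-actin genes or skeletal muscle in the pools contributed to the acta2 values was not tested.

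The cytoplasmic actins, the usual partners of non-muscle myosin, overlapped between the groups. For actb2 the values were 3534 and 4817 in mutant hearts, against 3760 and 4619 in sibling hearts, a log2 fold change of -0.01 ± 0.28. For actb1 they were 2507 and 3432 in mutant hearts, against 2186 and 2920 in sibling hearts, a log2 fold change of 0.22 ± 0.27, a gene named after its values were seen.

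**Figure D4:**
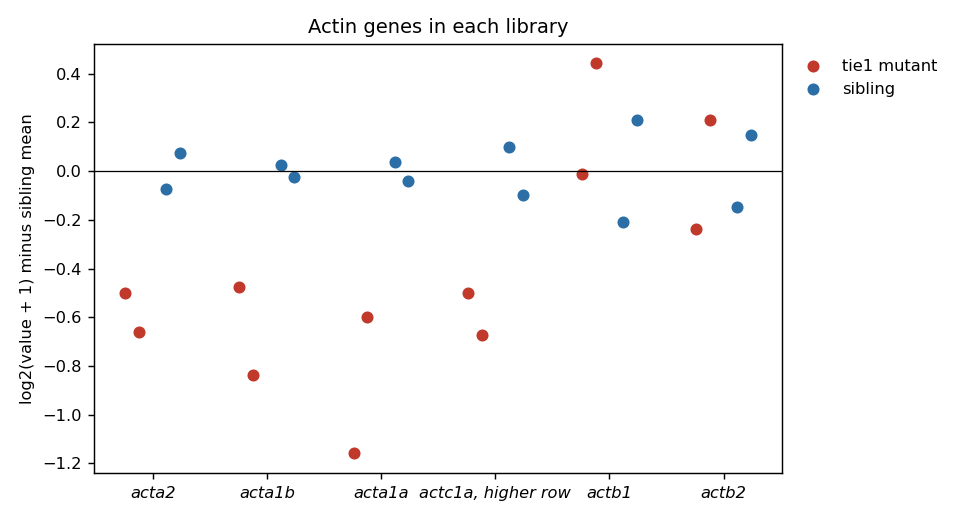
Log2(value + 1) of 6 actin rows in each library, relative to the sibling mean (vertical axis), with tie1 mutants in red and siblings in blue. Both mutants lie below both siblings for acta2, acta1b, acta1a and the higher actc1a row, while the cytoplasmic genes actb1 and actb2 overlap.

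Position adds a detail to the heavy chain genes. On GRCz11, 4 of the 8 members lie on chromosome 6, the chromosome of tie1. They are myl9b (positions 1787160 to 1799561, plus strand), myh10 (7553085 to 7658285, plus strand), myh9a (7735806 to 7776612, minus strand) and myh11a (8499865 to 8580858, minus strand). The other genes are myh9b on chromosome 3 (5102656 to 5228841, minus strand), acta2 on chromosome 12 (17100021 to 17116481, plus strand), tagln on chromosome 15 (543744 to 551181, minus strand) and myl9a on chromosome 23 (42810055 to 42823356, plus strand). Only 77.5 kb separate myh10 from myh9a, and 26.2 Mb lie between myh9a and tie1. The 5 rows between myh10 and myh9a showed no shared direction. The gene next to myh10, ubn2a, had 76 and 87 in mutant hearts, against 87 and 79 in sibling hearts, and rpsa, the gene of a ribosomal protein, had 886 and 1263 in mutant hearts, against 667 and 1087 in sibling hearts. Over the 558 fitted genes of chromosome 6 the median log2 fold change was -0.02, and 52.2% were lower. These neighbours were looked up after the values were seen.

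Log2 fold changes of the fitted close relatives of the members lay between -0.40 and 0.01. Of 8 paralogs listed, 7 were in the table and 6 were fitted, with 0 past the threshold. Of the fitted ones 4 were lower and 2, myl12.2 and tagln3b, were higher, at 0.01 each. Their median log2 fold change was -0.04 over the 4 libraries, but -0.49 without mutant 1, 0.11 without mutant 2 and -0.16 without sibling 2, and 0.05 after rescaling without mitochondrially encoded genes. The heavy chain gene of non-muscle myosin IIC, myh14, had 411 and 253 in mutant hearts, against 391 and 323 in sibling hearts, a log2 fold change of -0.14 ± 0.27. The regulatory light chain gene myl12.1 had 243 and 243 in mutant hearts, against 244 and 265 in sibling hearts, and its copy myl12.2 had 32 and 13 in mutant hearts, against 23 and 18 in sibling hearts. The log2 fold changes of these regulatory light chain genes were -0.07 ± 0.20 for myl12.1 and 0.01 ± 0.47 for myl12.2, beside 0.18 for myl9b. The essential light chain gene myl6 was low, with 15 and 8 in mutant hearts, against 13 and 17 in sibling hearts, a log2 fold change of -0.40 ± 0.50. Of the transgelin genes, tagln2 had 95 and 105 in mutant hearts, against 91 and 111 in sibling hearts, a log2 fold change of -0.01 ± 0.23, and tagln3b had 23 and 11 in mutant hearts, against 18 and 14 in sibling hearts. The second smooth muscle heavy chain gene, myh11b, stood at 9 and 5 in mutant hearts, against 9 and 3 in sibling hearts, under the level needed for the fit.

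Smooth muscle and mural cell markers leaned lower but were mostly low in value. Of 27 names listed, 18 had a row and 14 were fitted, of which 11 were lower and 3 higher, at a median log2 fold change of -0.28 and 0 past the threshold. Under each of the 14 alternative settings the median stayed between -0.35 and -0.19. The channel subunit gene abcc9 had 31 and 39 in mutant hearts, against 90 and 49 in sibling hearts, a log2 fold change of -0.91 ± 0.34, and rgs5a, a marker of pericytes, had 40 and 45 in mutant hearts, against 63 and 78 in sibling hearts, a log2 fold change of -0.71 ± 0.27. The highest values of the list belonged to the desmin gene desma, which had 721 and 639 in mutant hearts, against 973 and 748 in sibling hearts, and desmin is also a protein of striated muscle. Some defining genes were at or near the floor. Named after their values were seen, the mural channel gene kcnj8 had 0 and 1 in mutant hearts, against 2 and 4 in sibling hearts, and the elastin gene elnb, a gene of outflow tract smooth muscle, had 14 and 1 in mutant hearts, against 6 and 3 in sibling hearts. Chosen in the same way, the calponin gene cnn1b had 81 and 35 in mutant hearts, against 82 and 45 in sibling hearts, a log2 fold change of -0.19 ± 0.43. The mural receptor gene pdgfrb, also chosen so, was on the higher side and had 36 and 29 in mutant hearts, against 21 and 24 in sibling hearts, a log2 fold change of 0.51 ± 0.33.

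Of 38 fitted genes for cytoplasmic actins and proteins that bundle, cap or nucleate actin, 23 were lower and 15 higher, with 0 past the threshold. The median log2 fold change was -0.03 and lay between -0.08 (without sibling 1) and 0.06 (after rescaling without mitochondrially encoded genes) under the alternatives, so its sign was not stable. The smallest p-values belonged to actr2b, a subunit gene of the Arp2/3 nucleator, with 34 and 35 in mutant hearts, against 54 and 47 in sibling hearts, and to the formin gene diaph3, with 75 and 92 in mutant hearts, against 50 and 71 in sibling hearts. Serum response factor, with its myocardin-related cofactors, drives many actin and smooth muscle genes. In the list of that factor, its cofactors and its widely described targets, 11 of 21 fitted rows were higher and 10 lower, with 0 past the threshold. The median log2 fold change was 0.05, but -0.28 without mutant 1, 0.17 without mutant 2, 0.01 without sibling 1 and -0.05 without sibling 2. The factor's own genes overlapped, with srfa at 25 and 29 in mutant hearts, against 28 and 31 in sibling hearts, and srfb at 55 and 52 in mutant hearts, against 59 and 44 in sibling hearts, both named after their values were seen. Among its targets, the matricellular gene cyr61 had 177 and 117 in mutant hearts, against 81 and 59 in sibling hearts, a log2 fold change of 1.05 ± 0.28, whereas the vinculin gene vcla, present in 2 rows, had 75 and 61 in mutant hearts, against 130 and 100 in sibling hearts in the row with the smaller p, a log2 fold change of -0.74 ± 0.25. The gene with the highest values, fhl2a, which encodes a LIM domain protein, overlapped at 1090 and 643 in mutant hearts, against 781 and 491 in sibling hearts.

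Focal adhesion genes, which link actomyosin to integrins, were more often lower than higher. Of 31 fitted rows 22 were lower and 9 higher, with 0 past the threshold. The median log2 fold change was -0.17, but -0.03 without sibling 1 and -0.08 after rescaling without mitochondrially encoded genes. Groups did not overlap for 10 lower and 2 higher rows, against the 18.3% and 15.7% of all genes given above. The parvin gene parvb had 42 and 31 in mutant hearts, against 95 and 75 in sibling hearts, a log2 fold change of -1.20 ± 0.28. The talin gene tln1, with the highest values of the list, had 609 and 651 in mutant hearts, against 1060 and 894 in sibling hearts, a log2 fold change of -0.63 ± 0.21, an adjusted p of 0.587 in limma. The integrin subunit gene itgb1b and the kinase gene ilk, also chosen for their values, had log2 fold changes of -0.41 ± 0.21 and -0.52 ± 0.25. Chosen in the same way from the 9 higher rows, fermt1 and the talin gene tln2b had log2 fold changes of 0.66 ± 0.36 and 0.78 ± 0.49. The epicardial and skeletal muscle marker sums given above were lower in both mutants than in either sibling, with podxl most of the epicardial sum. The endothelial sums overlapped, but 7 of the 15 endothelial rows lay lower without overlap and 0 lay higher, beside the same shares of all genes. The part of these cell types in the focal adhesion values was not tested.

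**Figure D5:**
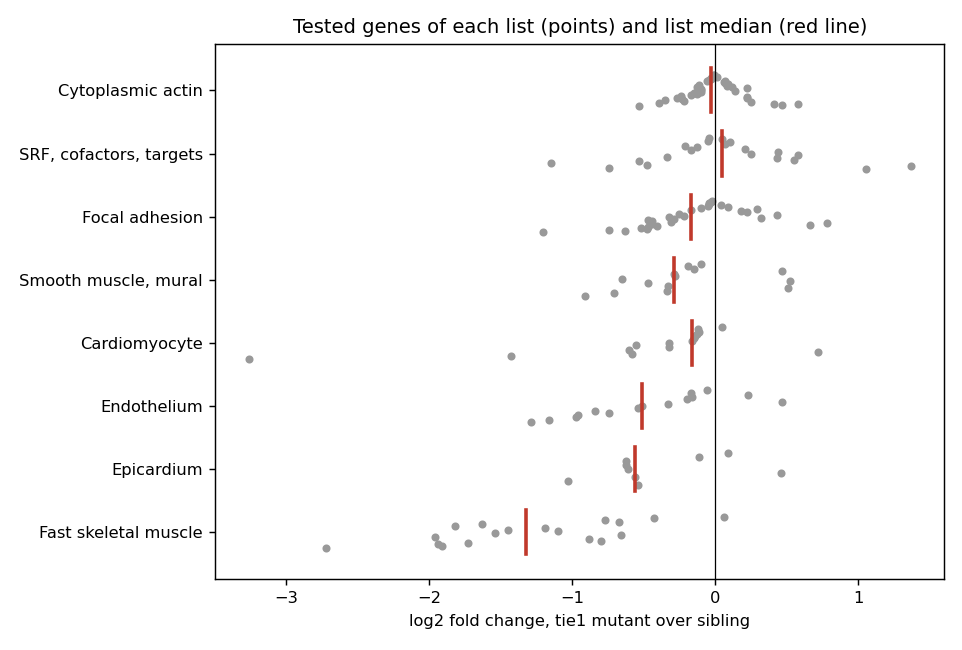
Log2 fold change of tie1 mutants over siblings for every fitted row of 8 gene lists (grey points), with the list median (red line). Over all 4 libraries the cytoplasmic actin and serum response factor lists have medians of -0.03 and 0.05, focal adhesion and smooth muscle lists lie at -0.17 and -0.28, and fast skeletal muscle lies farthest from 0 at -1.32.

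The KEGG annotation in the deposited table placed 6 of the 8 members, the heavy chain and light chain genes, in the tight junction pathway and 3, myl9a, myl9b and acta2, in vascular smooth muscle contraction. Of 121 fitted tight junction genes 79 were lower, at a median log2 fold change of -0.10 that was -0.05 under quantile normalization, -0.01 after rescaling without mitochondrially encoded genes and -0.16 without sibling 2. That pathway also holds sarcomeric myosins such as the ventricular gene myh7, at 13077 and 7093 in mutant hearts, against 31906 and 21256 in sibling hearts. Of 91 fitted genes of vascular smooth muscle contraction 53 were lower, at a median log2 fold change of -0.07 that was 0.02 after that rescaling, -0.02 under quantile normalization, 0.02 without mutant 2, 0.00 without sibling 1 and -0.13 without sibling 2. In focal adhesion and in regulation of the actin cytoskeleton, which hold both myl9 genes, 119 of 185 and 114 of 183 fitted genes were lower. The medians of these pathways were -0.11 and -0.07, and -0.02 and 0.02 after the same rescaling. That rescaling also raised the median of all genes, to 0.09, so the shift is not particular to these pathways. Whether the pathways differ from all genes was not tested. Single libraries moved them as well, that of focal adhesion to -0.07 without sibling 1 and that of the actin cytoskeleton to -0.11 without mutant 1. In each of the 4 pathways 0 genes were past the threshold. The pathways were chosen after the table was seen.

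The profiles nearest to each member were sought among the 5411 genes with a mean of at least 50, by Euclidean distance between log2 values centred on their mean over the 4 libraries. With 4 libraries many genes come close, so these neighbours describe the shape of a profile and no more. Nearest to myh10 were agla, a glycogen debranching enzyme gene, at a distance of 0.0669, and mybphb, a myosin-binding protein gene, at 0.0867. The mybphb values were 176 and 187 in mutant hearts, against 365 and 280 in sibling hearts. Nearest to acta2 was the small GTPase gene rac1b, at a distance of 0.0377, with 80 and 69 in mutant hearts, against 107 and 118 in sibling hearts. The nearest genes to myh9a were pes and rpl13a, a ribosome biogenesis factor gene and a ribosomal protein gene, at 0.0187 and 0.0294. For myh9b the nearest was cltcb, for myh11a xrcc5, for myl9a ryr3 and for myl9b rtn1a, at distances of 0.0312, 0.0350, 0.0823 and 0.0429. The profile of tagln rests on values under 10, and its neighbours are not named.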

How the data were processed

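RNA was measured in 4 libraries of pooled hearts. Per the labels' protocols, 2 ng of DNase-treated total RNA was made into libraries with a SMARTer Pico kit, which keeps the strand and takes tiny inputs. Named in the submitters' processing notes are STAR (2.4.0a), featureCounts (1.4.5-p1), Subread and FastQC, and the build GRCz11, with no role given. The strand setting and the normalization are not stated in the sources used here. Reads of overlapping or near-identical genes cannot be told apart in the deposited values. The authors deposited whole numbers in a normalised count matrix, treated here as a score and not as reads. Their low values are spaced by a factor for each library, and multiplying the totals by that factor gave the estimated reads. In the sibling libraries rounding merges neighbouring read numbers, so no count test was used.

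Values were analysed as log2(value + 1), a scale that understates changes of low genes, for genes that averaged 10 or more. The comparison of mutants with siblings used limma (3.58.1, R 4.3.3) with its trend of variance on mean. P-values were adjusted after Benjamini-Hochberg with a threshold of 0.05. The fit was checked on simulated data with changes much wider than those of the members, so that check says nothing about changes of their size. An adjusted p or SE comes from this fit, and SD is over the 2 libraries of a group. The members and the gene lists, 14 of which are reported, were chosen with earlier results of these data known. Apart from the members, the rule named all paralogs and, of each such list, the gene with the highest mean and the 2 with the smallest p. Of the erythrocyte, leukocyte, epidermal, neuronal and neural crest lists only medians are given, apart from krt4, and genes outside the rule are marked. Alternatives were 3 scalings, other pseudocounts, filters and variance models, a replicate block, and leaving out each library. No protein or promoter sequences were used here, and 1 further list is not reported here.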

Additional observations from a re-analysis of the deposited data

How the results depend on the processing

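No gene passed the adjusted threshold without any 1 library, with other pseudocounts, without a filter, without a variance trend, or with quantile or median-ratio scaling. Past it were 1 higher and 3 lower after rescaling without mitochondrially encoded genes, 1 and 12 where only genes averaging 50 or more were fitted, and 1 and 15 with limma's robust setting, none of them a member. The replicate numbers are only shared labels: deviations of same-numbered libraries correlated at 0.198 over genes, with 2 pairs. With the replicate number as a block, 19 genes were higher and 76 lower, among them 1 member, myh10, which did not pass without the block. At an unadjusted p under 0.05, the higher count was 506 without mitochondrially encoded genes, 508 with no filter, 110 for genes averaging 50 or more and 565 with the block. The lower count was 327 for those genes and 814 with the block. Without each library in turn the higher count ranged from 185 (without mutant 2) to 352 and the lower from 154 (without sibling 1) to 394. Non-overlapping groups numbered 730 higher and 1214 lower for genes averaging 50 or more, where fewer genes were tested. The cause of the other shifts was not tested. The log2 fold change of myl9a ranged from -0.83 to 0.02 without each library. The other 6 fitted members moved by less than their SE under each alternative, a criterion that lets a small value change sign. The sign of myl9b changed under 2 alternatives and that of myh9b under 1. At values such as those of tagln, depth limits what can be seen.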
